A study of Rattus norvegicus with 15 samples.

Results

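Ins1, Ins2 and Iapp, the 2 rat insulin genes and the gene of islet amyloid polypeptide (amylin), were followed across every library of a study of pancreatic islet cells. They were found by their symbols and make up 3 of the 17055 genes in the count tables. The islets came from Sprague-Dawley rats 10 days old, an age at which the pups are still suckling. Their cells were transfected with a control microRNA mimic or with a mimic of miR-17-5p, and the study asked what the added microRNA does to the RNA of young islet cells. From each condition came mRNA libraries, made from RNA selected by its poly(A) tail, and RISC libraries, made from RNA pulled down with a monoclonal antibody against Ago2, the Argonaute protein at the heart of the RNA-induced silencing complex, which microRNAs load. The 4 groups were control mRNA (3 libraries, numbered 1, 2 and 3), miR-17-5p mRNA (5 libraries, numbered 1, 2, 4, 5 and 6), control RISC (3 libraries, numbered 1, 2 and 3) and miR-17-5p RISC (4 libraries, numbered 2, 4, 5 and 6). All cells in these groups were transfected, so no group shows the untouched islet, and no animal or culture is named for a library. The descriptions number the mRNA libraries as separate biological replicates, but give all 7 RISC libraries the same replicate number, so the titles were used. P values therefore measure the spread between these libraries, part of which may be technical.

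Insulin is made in the beta cells of the islet as preproinsulin, which is folded in the endoplasmic reticulum, cut by prohormone convertases and stored in secretory granules. Rats and mice carry a pair of insulin genes, both active in beta cells, where most mammals have 1. Amylin is a peptide hormone that is processed by the same convertases, packed in the same granules and released together with insulin. A microRNA guides Ago2 to messenger RNAs that pair with its seed, bases 2 to 8 from its 5′ end, and such messages are usually destabilised or less translated.

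The mimic carries the sequence of a microRNA whose seed is shared by a family, and the rat table of RefSeq (build GRCr8) lists 5 mature names with that seed among 693. They are printed 5′ to 3′ to show which bases the family holds in common, with the seed in capitals.
miR-17-5p (chr15:98587861-98587883, plus strand): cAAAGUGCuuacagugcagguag
miR-20a-5p (chr15:98588318-98588340, plus strand): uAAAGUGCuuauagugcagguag
miR-93-5p (chr12:22156894-22156916, minus strand): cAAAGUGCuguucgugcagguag
miR-106b-5p (chr12:22157103-22157123, minus strand): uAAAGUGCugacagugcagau
miR-20b-5p (chrX:137343239-137343261, minus strand): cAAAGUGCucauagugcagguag
The pairing stretch of a message would read GCACTTT in DNA letters. Whether the messages of the 3 hormone genes hold it was not examined, since their transcript sequences were not used here.

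The stretches in front of the genes show how far the pair of insulin genes resemble each other and how Iapp differs. Each is the 250 bases before the gene start in RefSeq (GRCr8), 5′ to 3′ along the gene, and all 3 genes matched a promoter by symbol. Capitals mark matches, on either strand and with overlaps counted, to 5 short motifs: GCCATCTG (the E box of insulin genes), TAAT (the core bound by homeodomain factors such as Pdx1), CCAAT (bound by factors such as nuclear factor Y), TGACG (part of the cyclic AMP response element) and TATAAA.
Ins1 (chr1:261185869-261186118, plus strand): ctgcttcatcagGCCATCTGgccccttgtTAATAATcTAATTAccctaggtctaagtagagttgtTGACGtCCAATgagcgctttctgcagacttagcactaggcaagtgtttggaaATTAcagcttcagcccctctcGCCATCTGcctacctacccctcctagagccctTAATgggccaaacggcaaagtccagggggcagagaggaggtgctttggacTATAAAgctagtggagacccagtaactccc
Ins2 (chr1:207273806-207274055, minus strand): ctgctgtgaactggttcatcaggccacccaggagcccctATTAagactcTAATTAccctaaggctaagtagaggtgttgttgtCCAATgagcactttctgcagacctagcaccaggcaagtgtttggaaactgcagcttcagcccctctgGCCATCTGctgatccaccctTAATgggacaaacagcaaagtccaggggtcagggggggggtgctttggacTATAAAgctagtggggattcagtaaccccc
Iapp (chr4:176967847-176968096, plus strand): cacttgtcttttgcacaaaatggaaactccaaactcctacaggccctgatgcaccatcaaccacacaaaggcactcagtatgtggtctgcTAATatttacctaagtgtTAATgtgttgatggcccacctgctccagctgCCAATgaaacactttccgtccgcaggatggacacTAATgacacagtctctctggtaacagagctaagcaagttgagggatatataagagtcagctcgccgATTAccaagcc
GCCATCTG occurred 2 times before Ins1, 1 time before Ins2 and 0 times before Iapp, while 0.998% of 33469 rat promoter stretches of RefSeq held it at all. TAAT occurred 6, 4 and 4 times in the same order, and 57.0% of all stretches held it. CCAAT stood 1 time before each of the 3 genes (34.0% of all stretches). TATAAA stood 1 time before Ins1 and 1 time before Ins2 (12.9% of all stretches), and TGACG 1 time before Ins1 alone of the 3 (18.2%). Only exact matches were counted, so close variants of these motifs stayed unmarked, before Iapp as elsewhere. Aligned with each other, the stretches of Ins1 and Ins2 were identical in 206 of 262 columns (78.6%), those of Ins1 and Iapp in 48.1% and those of Ins2 and Iapp in 50%.

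Library totals ran from 3379456 to 21056240 counts in mRNA and from 4185123 to 13420403 in RISC. The ribosomal RNA gene Rn45s took 3.13% to 12.8% of the mRNA counts and 23.6% to 42.6% of the RISC counts. Genes with at least 1 count numbered 11142 to 12997 per mRNA library, 5589 to 7424 per control RISC library and 9040 to 10753 per miR-17-5p RISC library. Alignments that were not unique were left out of the counts by the authors. Since Ins1 and Ins2 are near copies of each other, reads that fit both cannot be placed, and the division of counts between them is uncertain.

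In the mRNA of these cells the insulin genes were among the most counted genes in every library. By counts, which are not corrected for gene length, Ins1 ranked 1st in all 8 mRNA libraries, and Ins2 ranked 2nd in 7 of them and 3rd in miR-17-5p library 4. Iapp ranked 19th to 22nd in the control libraries and 21st in miR-17-5p library 1, and 60th to 143rd in the other 4 miR-17-5p libraries.

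Ins1 mRNA stood at 203792, 216123 and 251548 CPM (counts scaled to library size, here over the 8 mRNA libraries) in control libraries 1, 2 and 3. With miR-17-5p it stood at 277026, 157177, 163812, 182139 and 177489 CPM in libraries 1, 2, 4, 5 and 6. Library 1 lay above every control and the other 4 below every control, so the groups overlapped. The means were 223821 ± 24791 (SD, n = 3) and 191529 ± 48845 CPM (SD, n = 5). The log2 fold change of miR-17-5p against control was -0.22 ± 0.26 (SE; 95% interval -0.78 to 0.33; edgeR quasi-likelihood test with Benjamini-Hochberg adjustment over all genes, adjusted p = 0.692).

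Ins2 mRNA followed the same order of libraries within each group. It stood at 158503, 162843 and 186718 CPM in the controls and at 197293, 98917, 99299, 156061 and 126991 CPM with miR-17-5p, where library 1 was again the only one above a control. The means were 169355 ± 15193 (SD, n = 3) and 135712 ± 41720 CPM (SD, n = 5). The log2 fold change was -0.32 ± 0.27 (95% interval -0.90 to 0.26; edgeR adjusted p = 0.574). For neither insulin gene was a change detectable in these 8 libraries.

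Iapp mRNA was lower than in every control in 4 of 5 miR-17-5p libraries, and it did not pass the test over all 5. It stood at 1552, 1414 and 1679 CPM in the controls. With miR-17-5p it stood at 1642, 656, 515, 866 and 571 CPM. Library 1 lay inside the control range, and the other 4 lay below it. The log2 fold change was -0.86 ± 0.33 (95% interval -1.58 to -0.15; edgeR adjusted p = 0.180). Without miR-17-5p library 1 it was -1.25 and passed the test (edgeR adjusted p = 0.00121), in a fit that called 816 of 10993 genes. With all 8 libraries, 3.87% of the 11077 genes tested were called and 0.767% were called lower. In that fit 6.68% had CPM lower in every miR-17-5p library than in every control, and 3.47% had a log2 fold change below that of Iapp.

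**Figure D1:**
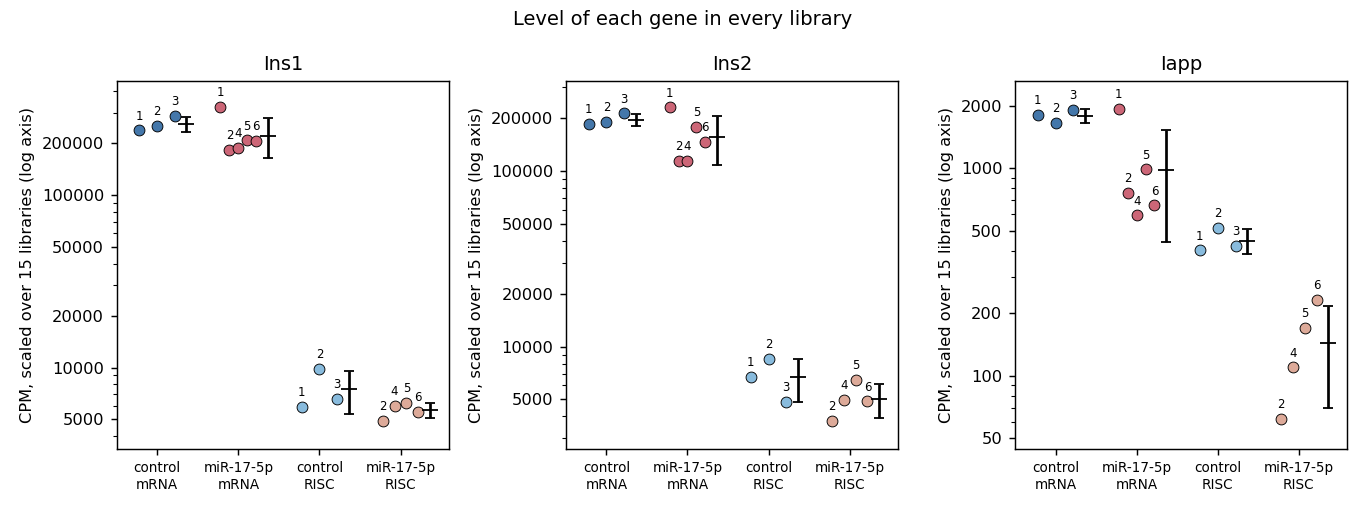
CPM of Ins1, Ins2 and Iapp in each of the 15 libraries, scaled over all 15, on log axes. Points are libraries with their number, and the bars beside them are the mean and SD of the group. RISC libraries sit below mRNA libraries for all 3 genes, miR-17-5p mRNA library 1 sits above the controls on this scale, and the 4 miR-17-5p RISC libraries sit below the controls for Iapp.

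Among RNA bound to Ago2, Iapp stood lower in every miR-17-5p library than in every control library, and its change missed the threshold. Iapp stood at 464, 614 and 498 CPM (scaled over the 7 RISC libraries) in control RISC libraries 1, 2 and 3. It stood at 74.2, 130, 204 and 277 CPM in miR-17-5p RISC libraries 2, 4, 5 and 6. The groups did not overlap, which held in this direction for 3.19% of the 9443 genes tested. The means were 525 ± 78.9 (SD, n = 3) and 172 ± 88.4 CPM (SD, n = 4). The log2 fold change was -1.61 ± 0.40 (95% interval -2.52 to -0.71; edgeR adjusted p = 0.0725). By p Iapp ranked 195th, 5.01% of genes had a lower log2 fold change, and the median of all genes tested was 0.27. In this comparison 0.371% of genes were called and 0.0318% were called lower. In the DESeq2 Wald test, which called 13.8% of genes here, Iapp changed by -1.70 with an adjusted p of 0.00231. With limma-voom, which called 0.201%, it changed by -1.79 with an adjusted p of 0.303. The median of all genes tested was 1.89 in that fit. Control RISC libraries had fewer genes detected than miR-17-5p RISC libraries, by the ranges given above, and the part of that in the Iapp values was not tested.

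The insulin messages bound to Ago2 showed no detectable change. Ins1 stood at 6843, 11730 and 7762 CPM in control RISC and at 5836, 7138, 7482 and 6551 CPM in miR-17-5p RISC, with overlap of the groups. Its log2 fold change was -0.38 ± 0.21 (95% interval -0.86 to 0.10; edgeR adjusted p = 0.441). Ins2 stood at 7717, 10148 and 5675 CPM in control RISC and at 4499, 5910, 7763 and 5789 CPM in miR-17-5p RISC. The groups overlapped here too, and the log2 fold change was -0.39 ± 0.25 (95% interval -0.95 to 0.17; edgeR adjusted p = 0.544). Control RISC library 2 was the highest of the 7 for all 3 genes.

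A gene that miR-17-5p draws into the complex would be expected to rise in RISC against its mRNA, and the difference of both changes was tested for that. For Iapp the RISC change minus the mRNA change was -0.77 ± 0.58 (95% interval -2.01 to 0.47; edgeR adjusted p = 0.524). For Ins1 it was -0.17 ± 0.30 (adjusted p = 0.888) and for Ins2 -0.09 ± 0.36 (adjusted p = 0.980). None of the 3 was called. Of all 11418 genes 13.4% were called and 0.394% were called lower, and the median of all genes was 0.40. Shares of genes with a lower value were 16.4% for Iapp, 32.1% for Ins1 and 34.7% for Ins2. The sign for the insulin genes turned in some alternatives, while that of Iapp stayed below 0 in all 17.

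Within a library the ratio of Iapp to insulin does not depend on how libraries are scaled to each other. Iapp gave 4.28, 3.73 and 3.83 counts per 1000 counts of Ins1 plus Ins2 in control mRNA. It gave 3.46, 2.56, 1.96, 2.56 and 1.87 in miR-17-5p mRNA libraries 1, 2, 4, 5 and 6. Here all 5 libraries, library 1 included, lay below all controls. The mean log2 ratio differed by -0.70 (exact two-sided permutation test over 56 splits, p = 0.0536, adjusted over 12 such tests 0.114, smallest p possible 0.0179).

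In RISC the same ratio was 31.8, 28.1 and 37.1 in control libraries and 7.18, 9.99, 13.4 and 22.5 in miR-17-5p libraries 2, 4, 5 and 6. Again no library of one group reached the other. The mean log2 ratio differed by -1.41 (exact two-sided permutation test over 35 splits, p = 0.0571, adjusted 0.114, smallest p possible 0.0286). Among genes above 0 in every library, 1.60% of 10153 in mRNA and 1.68% of 4358 in RISC had ratios to insulin that were lower in every miR-17-5p library. The median gene's ratio to insulin changed by 0.29 in mRNA and 0.55 in RISC on the log2 scale, and 1.97% and 1.47% of genes had a change below that of Iapp.

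Of 4333 genes above 0 in all 15 libraries, 8 (0.185%) had such lower ratios to insulin in both library types. These were 8.42% of the 95 genes with lower ratios in mRNA and 11.1% of the 72 in RISC. Besides Iapp they were Ffar1, the fatty acid receptor of beta cells, Gad2, a glutamate decarboxylase made in islets, Lgals3, which codes for galectin-3, Vil1, which codes for the actin-binding villin, and Crispld1, Gal3st1 and Gyltl1b. They were listed after their values were seen.

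**Figure D2:**
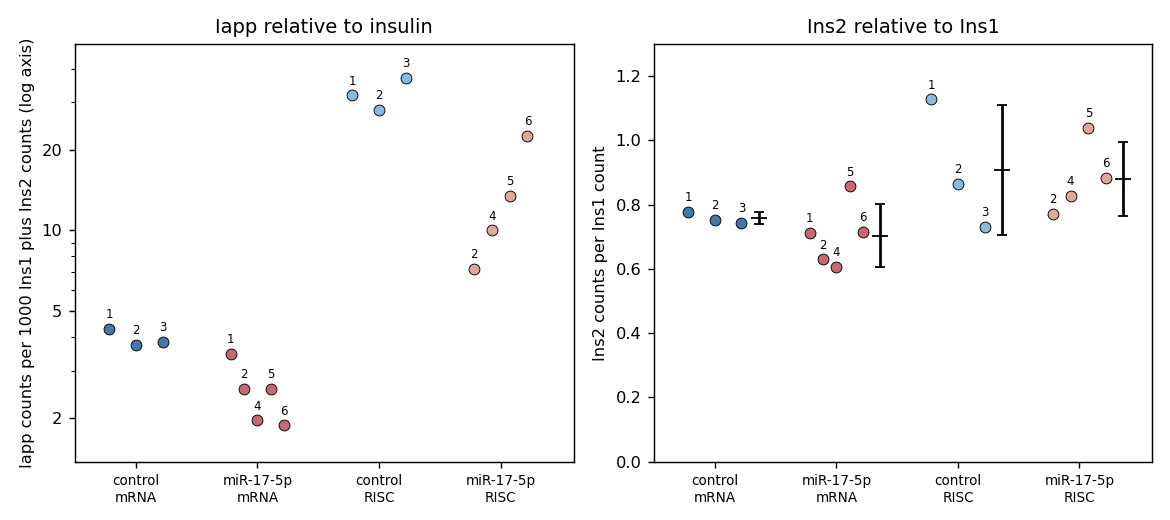
Left, Iapp counts per 1000 insulin counts (Ins1 plus Ins2) in each library, on a log axis. Right, Ins2 counts per Ins1 count, with the mean and SD of each group. The miR-17-5p libraries lie below the controls on the left in both library types, from 1.87 to 3.46 in mRNA and from 7.18 to 22.5 in RISC, whereas on the right the groups overlap.

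No difference with miR-17-5p was detectable in the ratio between the insulin genes. Ins2 gave 0.778, 0.753 and 0.742 counts per Ins1 count in control mRNA and 0.712, 0.629, 0.606, 0.857 and 0.715 in miR-17-5p mRNA. In RISC the ratio was 1.13, 0.865 and 0.731 in controls and 0.771, 0.828, 1.04 and 0.884 with miR-17-5p. The groups overlapped in both cases, and the mean log2 ratio differed by -0.12 in mRNA (exact permutation p = 0.339) and by -0.03 in RISC (exact permutation p = 0.886). Between library types the log2 ratio was 0.24 higher in RISC in control cells (exact permutation p = 0.400) and 0.32 higher in miR-17-5p cells (exact permutation p = 0.0476, adjusted 0.114).

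Both insulin messages made up far less of the Ago2-bound RNA than of the poly(A) RNA. Scaled over all 15 libraries, Ins1 stood at 259008 ± 25365 CPM in control mRNA (SD, n = 3) and at 7458 ± 2111 in control RISC (SD, n = 3). The log2 fold change of RISC against mRNA was -5.12 ± 0.27, a 34.7-fold lower level (edgeR adjusted p = 2.74e-08). Ins2 stood at 196008 ± 15005 and 6677 ± 1863 CPM, a change of -4.88 ± 0.33 or 29.4-fold lower (edgeR adjusted p = 2.76e-07). Iapp was lower by less, at 1792 ± 133 against 447 ± 61.3 CPM, a change of -2.0 ± 0.46 or 4.01-fold (edgeR adjusted p = 0.00341). In control cells 41.6% of genes were called and 31.6% were called lower in RISC, and 40.3% had groups that did not overlap, with RISC lower. By p Ins1 ranked 8th and Ins2 16th of 11418 genes, and 26.6%, 27.1% and 38.0% of genes had a lower log2 fold change than Ins1, Ins2 and Iapp.

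In miR-17-5p cells the distance was of the same order for the insulin genes. Ins1 stood at 221702 ± 58240 CPM in mRNA (SD, n = 5) and 5663 ± 594 in RISC (SD, n = 4), a change of -5.29 ± 0.24 or 39.1-fold (edgeR adjusted p = 1.62e-08), the 1st gene of all by p. Ins2 stood at 157019 ± 48956 and 5023 ± 1107 CPM, a change of -4.97 ± 0.28 or 31.3-fold (edgeR adjusted p = 1.23e-07), the 3rd by p. Iapp stood at 985 ± 544 and 144 ± 74.1 CPM, a change of -2.78 ± 0.40 or 6.85-fold (edgeR adjusted p = 2.04e-04). Here 21.5% of genes were called, 12.0% were called lower in RISC and 28.1% did not overlap with RISC lower. The shares of genes with a lower log2 fold change were 4.41% for Ins1, 4.83% for Ins2 and 12.7% for Iapp. In control cells they were 26.6%, 27.1% and 38.0%, where the RISC libraries had fewer genes detected. The part of that in these shares was not tested. The protocol names a poly(A) selection for the mRNA libraries and none for the RISC libraries, and the share of Rn45s given above moved with the library type. The part of either in the differences between library types was not tested. With limma-voom the calls for Ins2 and Iapp in control cells were lost (adjusted p = 0.0502 and 0.229).

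The most abundant messages, the insulin genes included, were below 0 more often than all genes in RISC against mRNA, with lower medians. The insulin genes lay near the low end of them. Of the 50 genes with the highest CPM in control mRNA, 40 (80%) were below 0 in RISC against mRNA in control cells, beside 65.2% of all genes, and their median was -1.08 against -0.94. In miR-17-5p cells 33 of the 50 with the highest CPM (66%) were below 0, beside 59.1% of all genes, with a median of -0.73 against -0.35. These genes were chosen by their mRNA level, which also enters the fold change, so part of the lean below 0 is built in. In control cells Ins1 was the 2nd lowest of the 50, Ins2 the 4th and Iapp the 15th. The rest of the lowest 5 were Rplp1 (a ribosomal protein), Sst (somatostatin) and Ppy (pancreatic polypeptide). Relative to insulin, Iapp was higher in RISC than in mRNA by 3.03 on the log2 scale in control cells, 8.15-fold (exact permutation p = 0.100, the smallest possible, adjusted 0.150). In miR-17-5p cells it was higher by 2.32, 5.01-fold (exact permutation p = 0.00794, the smallest possible, adjusted 0.0476).

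**Figure D3:**
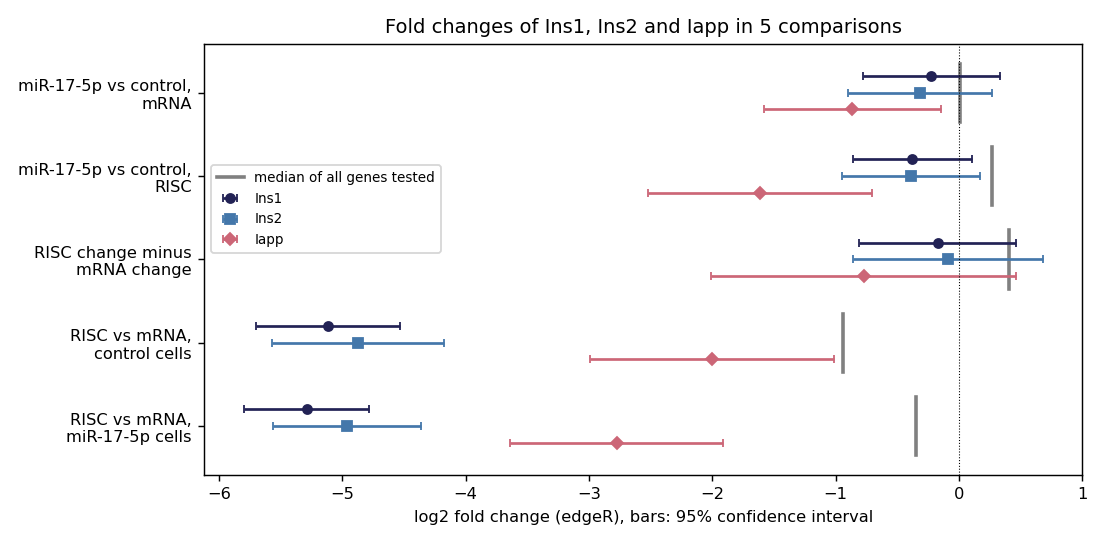
Log2 fold changes of Ins1, Ins2 and Iapp in the 5 comparisons, with 95% intervals from edgeR and, as grey lines, the median of all genes tested. Intervals of the insulin genes cross 0 in the first 3 comparisons and lie between -5.80 and -4.18 in the comparisons of RISC with mRNA, and Iapp lies to the left of the insulin genes in the first 3 and to their right in the others.

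Together the 3 genes took 38.0%, 36.9% and 41.7% of all counts in control mRNA and 42.0%, 28.7%, 26.3%, 34.3% and 31.8% in miR-17-5p mRNA. The groups overlapped through library 1, and the means differed by -6.26 percentage points (exact two-sided permutation p = 0.179). In RISC the 3 genes took 1.74%, 2.02% and 1.77% of counts in controls and 1.05%, 1.31%, 1.49% and 0.968% with miR-17-5p. These groups did not overlap, with a difference of -0.642 percentage points (exact two-sided permutation p = 0.0571, adjusted 0.114). The share was lower in RISC than in mRNA by 37.0 points in control cells (exact permutation p = 0.100, the smallest possible) and by 31.4 points in miR-17-5p cells (exact permutation p = 0.00794, adjusted 0.0476). Exact binomial 95% intervals of these shares were at most 0.105 points wide, which covers counting error only.

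Most genes that act on the making of insulin and amylin had log2 fold changes below 0 with miR-17-5p in mRNA, and edgeR called 2 members of the 6 lists, both among the other islet hormones. Of 11 tested transcription factors of the insulin genes, edgeR called 0, 9 had an unadjusted p under 0.05 and 10 had a log2 fold change below 0, with a median of -0.60 against 0.01 for all genes. Over all genes tested, edgeR called 3.87% and called 0.767% lower, 19% had an unadjusted p under 0.05 and 49.3% were below 0. DESeq2 called 2 of the factors lower (Pax6 and Pdx1) and limma-voom 6, where these tools called 2.43% and 3.91% of all genes lower. Pax6 had -0.72 ± 0.20 (edgeR adjusted p = 0.060) and Pdx1, the homeodomain activator of insulin and Iapp, -0.60 ± 0.17 (adjusted p = 0.060). Nkx2-2 had -0.72 ± 0.25 and Neurod1, which binds the E box, -0.60 ± 0.21. Of 11 genes of prohormone folding and processing, edgeR called 0, 5 had an unadjusted p under 0.05, 10 were below 0 and the median was -0.32. DESeq2 called Scg5, Cpe and Pcsk2 lower and limma-voom these and Pam. Scg5, the chaperone of the convertase Pcsk2, had -0.69 ± 0.22, Pcsk2 -0.60 ± 0.22, the carboxypeptidase Cpe -0.59 ± 0.20 and Pam, the enzyme that amidates amylin, -0.40 ± 0.16. Of 10 secretory granule genes, edgeR called 0, 8 had an unadjusted p under 0.05, 10 were below 0 and the median was -0.46. DESeq2 called 6 of them lower and limma-voom 7, Chga and Slc30a8 among them in both. Chga, the granule protein chromogranin A, had -0.58 ± 0.17 (adjusted p = 0.074) and Slc30a8, the zinc transporter of insulin granules, -0.82 ± 0.25 (adjusted p = 0.093).

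Other islet hormones had a median of -0.80 and 5 of 5 were below 0. In edgeR 2 passed the test, beside 3.87% of all genes called and 0.767% called lower. Ghrl (ghrelin) fell by 1.13 ± 0.20 (edgeR adjusted p = 0.00894) and Pyy (peptide YY) fell by 0.80 ± 0.17 (edgeR adjusted p = 0.0183). Ppy had -0.95 ± 0.27 and Sst -0.68 ± 0.21, both short of the threshold in edgeR, while limma-voom called both lower and DESeq2 Sst. Of 8 proteins that bind insulin mRNA or regulate it, and of 6 genes of the receptors of insulin and amylin, edgeR called 0, with an unadjusted p under 0.05 for 1 in each list, and the medians were 0.23 and 0.10. Insrr, a receptor related to the insulin receptor, had -0.72 ± 0.20 (adjusted p = 0.060) and was called lower by DESeq2 and limma-voom, and Insr itself had 0.38 ± 0.25.

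**Figure D4:**
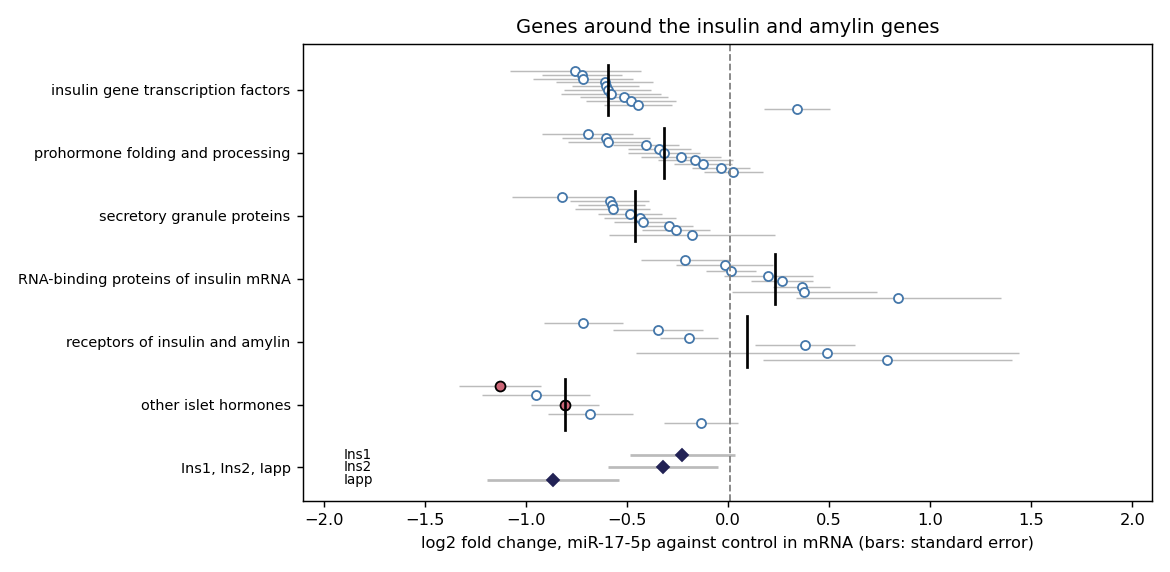
Log2 fold changes with miR-17-5p in mRNA for each tested gene of 6 lists, with standard errors, and for Ins1, Ins2 and Iapp (diamonds). Filled circles are genes called by edgeR (Ghrl and Pyy), black lines are list medians and the dashed line is the median of all genes. The medians of the transcription factors, processing genes, granule genes and other hormones, from -0.80 to -0.32, lie left of the dashed line.

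In RISC edgeR called 0 members of the 6 lists with miR-17-5p, beside the 0.371% of all genes. Unadjusted p values under 0.05 numbered 3 among the transcription factors, 1 in processing, 5 among granule genes, 1 among RNA-binding proteins, 0 among receptors and 1 among the other hormones, beside 20.1% of all genes, and limma-voom called 0. These are 3 of 11, 1 of 11, 5 of 10, 1 of 7, 0 of 4 and 1 of 4 members tested. The medians were -0.42 for the transcription factors, 0.01 for processing, -0.20 for granule genes and -0.35 for the other hormones, against 0.27 for all genes. Nearest to the threshold stood Ero1lb, the oxidase that helps fold proinsulin, at -1.20 ± 0.24, Rfx6 at -1.48 ± 0.40, Resp18 at -0.90 ± 0.18, Neurod1 at -0.62 ± 0.15 and, in the other direction, the granule gene Vgf, each with an edgeR adjusted p of 0.0725. Vgf had 0 counts in all 3 control RISC libraries and is given no fold. DESeq2, which called 13.8% of all genes here, called the first 4 lower, together with Nkx6-1, Scg2 and Slc30a8, and called Vgf higher. Between library types, most of the other hormones were lower in RISC and several transcription factors were higher. In control cells Ppy changed by -4.29 ± 0.55, Sst by -4.88 ± 1.13, Pyy by -2.04 ± 0.39 and Gcg (glucagon) by -1.58 ± 0.33 in RISC against mRNA, 4 of 5 called lower, beside 31.6% of all genes. Neurod1 was higher in RISC by 2.52 ± 0.24, Creb1 by 2.76 ± 0.54 and Rfx6 by 2.06 ± 0.41, and of the 11 factors 3 were called higher, beside 10% of all genes, and 1, Pax6, lower. Ero1lb was higher by 2.37 ± 0.26 and the convertase Pcsk1 by 1.29 ± 0.30, while Scg5 changed by -2.53 ± 0.37 and P4hb, a disulfide isomerase, by -1.75 ± 0.28. Of the 11 processing genes 2 were higher and 4 lower, and of the 10 granule genes 1 was higher and 4 lower, shares near those of all genes. In miR-17-5p cells 5 of 5 hormones were called lower, beside 12% of all genes. There 5 factors were higher and 0 lower by edgeR, beside 9.49% of all genes called higher, and Pax6 was at 0.27 ± 0.21. Processing genes gave 3 higher and 3 lower and granule genes 1 higher and 3 lower.

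The genes nearest to each hormone gene were those whose log2 CPM differed from it by the most constant amount, measured as the SD of that difference over libraries. Over the 8 mRNA libraries and 5949 genes, Ins1 lay nearest to Trappc1 (SD 0.088), Kifap3 (0.095), Rsrc2 (0.095), Ubl7 (0.096) and Pdgfrl (0.098), with a median over genes of 0.37. Ins2 lay nearest to Prrt1 (SD 0.090), Pc (pyruvate carboxylase, 0.096), Slc7a8 (0.11), Unc13a (0.11) and Pdgfrl (0.11). Each insulin gene was only the 92nd or 49th nearest of the other, at an SD of 0.16, and Iapp was 4436th for Ins1 and 2782nd for Ins2. Iapp lay nearest to LOC690918 (SD 0.16), Slc30a8 (0.21), Isyna1 (0.26), Cacna1b (0.27) and Cryba2 (0.28), against a median of 0.74.

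Over all 15 libraries and 4952 genes the SDs also take in the gap between library types. Ins1 and Ins2 were then each other's nearest gene (SD 0.24, with medians of 2.82 and 2.69), followed for Ins1 by Rpl32, Cd63, Rpl19 and Rpl15 and for Ins2 by Rpl32, Rpl15, Cd63 and Cst3. Iapp lay nearest to Scg5 (SD 0.56), Gstz1 (0.57), Resp18 (0.60), Wbp5 (0.63) and Lgals3 (0.65), with Ins2 at rank 773 and Ins1 at rank 1189. These SDs describe likeness over the same libraries, which share their depth and scaling, and carry no test.

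Summed levels of cell type markers are given for each group as a description, with no test. The 4 beta cell markers counted besides the hormones (Slc2a2, Pdx1, Slc30a8 and Nkx6-1) summed to 948 to 1282 CPM in control mRNA and to 606 to 1179 with miR-17-5p, the highest in library 1. In RISC they summed to 1260 to 2247 CPM in controls and to 756 to 1297 with miR-17-5p, and the groups overlapped in both library types. Markers of alpha, delta and PP cells, 6 of 6 detected, summed to 11014 to 16484 and 9977 to 12739 CPM in mRNA and to 3669 to 7331 and 2979 to 7374 in RISC, again with overlap. Stellate cell and fibroblast markers, 5 of 6 detected with Col1a2 at 0, summed to 7158 to 12664 CPM in control mRNA and to 12367 to 27391 with miR-17-5p, where library 1 was lowest and inside the control range. In RISC they summed to 3091 to 7241 CPM in controls and to 15235 to 18989 with miR-17-5p, without overlap. The 6 detected of 7 listed acinar markers in the tables, Pnlip being at 0, summed to 10.9 to 31.7 and 13.9 to 103 CPM in mRNA, which overlapped. Leukocyte markers, 4 of 4 detected in mRNA and in control RISC, summed to 15.6 to 80.0 and 38.2 to 108 CPM in mRNA, which overlapped. In RISC they summed to 0.188 to 37.2 CPM in controls and to 94.2 to 148 with miR-17-5p, where Aif1 was at 0. The 3 endothelial markers summed to 31.9 to 53.9 CPM in control mRNA and to 7.43 to 21.1 with miR-17-5p, and the 3 red blood cell markers to 18.0 to 69.9 and 2.70 to 8.75, both without overlap. In RISC the endothelial sums were 87.4 to 224 and 14.6 to 91.8 CPM, which overlapped. The 2 duct markers counted, of 4 listed, summed to 34.3 to 43.9 and 27.8 to 60.1 CPM in mRNA, with overlap. In RISC they summed to 0 to 0.321 CPM in controls and to 4.49 to 19.3 with miR-17-5p, without overlap. In the control RISC libraries 3 counts stood for 0.224 to 0.717 CPM, so these control sums rest on few or no counts. So does the leukocyte sum of control RISC library 3, at 0.188 CPM. Control RISC libraries also had fewer genes detected, by the ranges given above. The part of that in the RISC marker sums was not tested. Fewer beta cells and less hormone RNA per beta cell cannot be told apart in such bulk samples, and the part of these markers in the Iapp values was not tested.

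Set against the same 4 beta cell markers, Iapp gave 1.64, 1.26 and 1.31 counts per marker count in control mRNA and 1.39, 0.971, 0.851, 1.06 and 0.749 in miR-17-5p mRNA. Library 1 again lay inside the control range and the other 4 below it. In RISC the ratio was 0.206, 0.372 and 0.395 in controls and 0.0868, 0.172, 0.181 and 0.214 with miR-17-5p, where the groups overlapped through control library 1 and miR-17-5p library 6. Ins1 plus Ins2 gave 382, 338 and 342 counts per marker count in control mRNA. In miR-17-5p mRNA they gave 402, 379, 434, 413 and 400, and only library 2 lay below a control. In RISC they gave 6.48, 13.3 and 10.7 in controls and 12.1, 17.3, 13.5 and 9.51 with miR-17-5p, with overlap. The part of this in the ratio of Iapp to insulin was not tested.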

How the data were processed

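Counts per gene in 15 libraries were deposited by the authors, whose processing notes name build rn5, the aligners TopHat2 2.0.10 and Bowtie2, and HTSeq for counting. Per the labels' protocols reads were single-end and carried no strand, so a gene cannot be separated from an antisense or overlapping one. Lines of the counting program that name no gene stayed out (not unique 15.0% to 31.2%, ambiguous 0.151% to 0.454%). Groups and numbers came from the titles.

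The members, the 6 lists and the tests were chosen with earlier results of these data known. Counts were tested with edgeR 4.0.16 in R 4.3.3 (TMM, filterByExpr, robust quasi-likelihood F-tests, two-sided, adjusted p under 0.05 called), tested first on simulated data. Library types were compared in 1 fit of 15 libraries with a shared spread. Ratios and shares of counts were compared by exact permutation. Likeness used log2 CPM (prior count 2) of genes with a mean of at least 4. Genes named were the 3 hormone genes, up to 4 per list by smallest p, the 5 nearest per hormone gene, and Rn45s. Marker genes were named from their lists. Creb1, Pcsk1, the lowest genes among the 50 most abundant and those with lower ratios to insulin were named after their values were seen. Another gene listed as a beta cell marker is not reported here and was left out of the marker sums. Alternatives included DESeq2 1.42.0 and limma 3.58.1 (voom).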

Additional observations from a re-analysis of the deposited data

Results flagged for a closer look

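Ins1 in miR-17-5p mRNA library 1 stood at 277026 CPM, far from the other 4 libraries of its group. Its gap to the next library was 0.792 of the range of the group, above the critical value of 0.710 for 5 samples, and chance passes that value in about 1 in 20 groups. Highest and lowest libraries were checked in 12 sets of values, and this was the only one of the 24 to pass, about what chance gives. For Iapp the same library's gap was 0.689 of the range, just under the critical value.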

How the results depend on the processing

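Over the 17 alternatives in mRNA the log2 fold change stayed below 0 for all 3 genes, from -0.39 to -0.01 for Ins1, -0.49 to -0.20 for Ins2 and -1.25 to -0.51 for Iapp. Iapp was called in 1 of them, without miR-17-5p library 1, and single libraries left out gave -1.25 to -0.73. In RISC, Iapp ranged from -1.94 to -1.36 over 15 alternatives and was called in 1, the DESeq2 Wald test (-1.70). Libraries with the same number in different groups had correlations of deviations from group means from -0.179 to 0.049. No libraries of unlike number were set beside them, so these values cannot decide whether the numbers pair libraries. With the replicate block Iapp in mRNA was -0.51 (adjusted p = 0.907) and edgeR called 0 genes in place of 429 (461 with an unadjusted p under 0.05). Only numbers 1 and 2 occur in both mRNA groups, so libraries with other numbers added nothing to that estimate. It therefore rests on few libraries, miR-17-5p library 1 among them, and does not show what pairing would do over all libraries. For RISC alone no block could be fitted because the groups share 1 number.

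The difference of the RISC and mRNA changes turned above 0 for Ins1 and Ins2 with a mean of at least 50 counts (0.014 and 0.091) and with the replicate block (0.033 and 0.12), and ranged with libraries left out from -0.26 to 0.32 for Ins1 and from -0.19 to 0.36 for Ins2. It was above 0 without control library 2 or miR-17-5p library 1, and for Ins2 also without control library 1. The cause was not tested. With limma-voom, RISC against mRNA in control cells was -4.83 for Ins2 (adjusted p = 0.0502) and -1.99 for Iapp (adjusted p = 0.229). In miR-17-5p cells the log2 ratio of Iapp to insulin was 2.18 higher in RISC by medians (adjusted p = 0.286). With libraries left out it ranged from 1.93 to 2.60 and the share from -33.0 to -29.1 points, neither called with so few splits left. The log2 ratio of Ins2 to Ins1 in RISC ranged from -0.18 to 0.14 with libraries left out.

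Counts of called genes moved more than the 3 genes did, from 0 to 1017 in mRNA (main 429), 0 to 1305 in RISC (35), 0 to 2452 for the difference (1533), 1271 to 5244 for RISC against mRNA in control cells (4754) and 947 to 5961 in miR-17-5p cells (2459). In mRNA the count was 107 and 85 without control library 2 and 3, and 816, 189, 237 and 249 without miR-17-5p library 1, 4, 5 and 6. In RISC it was 1225 and 122 without control library 2 and 3, 548 without miR-17-5p library 4, and 0 without library 2, 5 or 6 (1139, 1153 and 1268 with an unadjusted p under 0.05). DESeq2 size factors shifted the median of all genes by -0.19 and -0.32 in the latter pair and by -0.13 in the difference. Limma-voom shifted it by more in control cells (-2.06) and in the difference (1.13), and by less in miR-17-5p cells (-0.27). A mean of at least 50 counts shifted it by 0.48 and 0.32 in the pair. For miR-17-5p against control in RISC limma-voom shifted it by 1.62. The replicate block shifted it by -2.17 and -0.26 in the pair and by 1.07 in the difference.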
